A study of Mus musculus with 39 samples.

Results

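Mitosis and spindle genes are the genes whose products condense the chromosomes, build the spindle, attach chromosomes to it and split the cell. A list of 50 such mouse genes was followed through normal B-cell development and leukemia, and 48 of them were among the 12393 genes measured, each read from its brightest probe set (by the mean over 39 arrays). Cyclin B1 (Ccnb1) and separase (Espl1), the other listed genes, are not analysed here. RNA came from B-lineage cells sorted from mouse bone marrow. The leukemic group held 16 arrays of cells sorted with the pre-B surface markers from mice with leukemia, which the series title describes as MLL-AF4. For 5 of them (A992, A1322, A1507, 270 and A46) the description names pIpC, a synthetic double-stranded RNA that triggers an interferon response, and for 11 it does not. Array 116 is labelled leukemic, but its description names an Mll-AF4stop knock-in mouse and no leukemia. The normal groups came from adult mice. They were 6 arrays of pro-B cells (B220+ CD43+ IgM- IgD-), 8 of pre-B cells (B220+ CD43- IgM- IgD-), 6 of immature B cells (B220+ CD43- IgM+ IgD-) and 3 of mature B cells (IgM+ IgD+). The labels name no Cre driver and no separate animal for each normal array, so the p-values reflect only the spread between these arrays, which may be technical.

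Mitosis starts when the kinase CDK1, bound to A- and B-type cyclins, is switched on by CDC25 phosphatases. Kinetochores then capture spindle microtubules, and a checkpoint holds back the anaphase-promoting complex (APC/C) until every chromosome is attached. Most of these genes are transcribed late in the cell cycle and are silent in resting cells. In the bone marrow, large cycling precursors around the pre-B-cell receptor stage divide rapidly, and cells that display IgM are mostly small and resting.

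All values are log2 intensities, so a difference of 1 is a doubling of signal. A gene was called when the adjusted p of limma, over all genes, was under 0.05. Array medians lay between 6.36 and 6.76. The sample accessions form 2 consecutive runs, which no label explains. Run 1 held 12 leukemic, 3 pro-B, 4 pre-B and 3 immature B arrays. Run 2 held 4 leukemic, 3 pro-B, 4 pre-B, 3 immature B and all 3 mature B arrays. The 3' minus 5' difference of the beta-actin control probe sets was 1.29 ± 0.084 (SD) in run 1 and 0.80 ± 0.139 in run 2. That of the Gapdh control probe sets went with the stages: in run 2 it averaged 1.09 on leukemic, 1.15 on pro-B, 1.26 on pre-B, 1.41 on immature B and 1.59 on mature B arrays, and in run 1 it was 0.93, 0.92, 1.04 and 1.10 on leukemic, pro-B, pre-B and immature B arrays. Its part in the results was not tested. Leukemic array 122 stood apart in its labelled cell type: its mean over 6 B-lineage markers was 7.60, while the other leukemic arrays were at 9.41 or higher. The mean of 9 pro-B and pre-B markers was 9.34 in leukemic, 9.95 in pro-B, 9.50 for pre-B, 7.54 in immature B and 6.77 in mature B cells.

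Averaged over the 48 genes, leukemic arrays read 10.08 ± 0.43 (SD, n = 16), between 9.20 on array 117 and 10.70 on array 270. Along the normal stages the same mean was 10.05 ± 0.53 in pro-B (n = 6), 10.53 ± 0.28 for pre-B (n = 8), 8.78 ± 0.39 in immature B (n = 6) and 8.09 ± 0.43 in mature B cells (n = 3). The leukemic, pro-B and pre-B arrays overlapped, and every one of them lay above all immature and mature B arrays. All 48 genes had their highest group mean in normal pre-B cells. In 44 of them the order was pre-B, pro-B, immature B, mature B, and in the other 4 (Cdc25b, Ndc80, Smc4 and Ncapd2) mature B lay above immature B. The leukemic mean lay below the pre-B mean for 48 genes, above the pro-B mean for 26 and below it for 22. In RNA of a sorted population, fewer dividing cells and less of these transcripts per cell cannot be told apart.

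**Figure D1:**
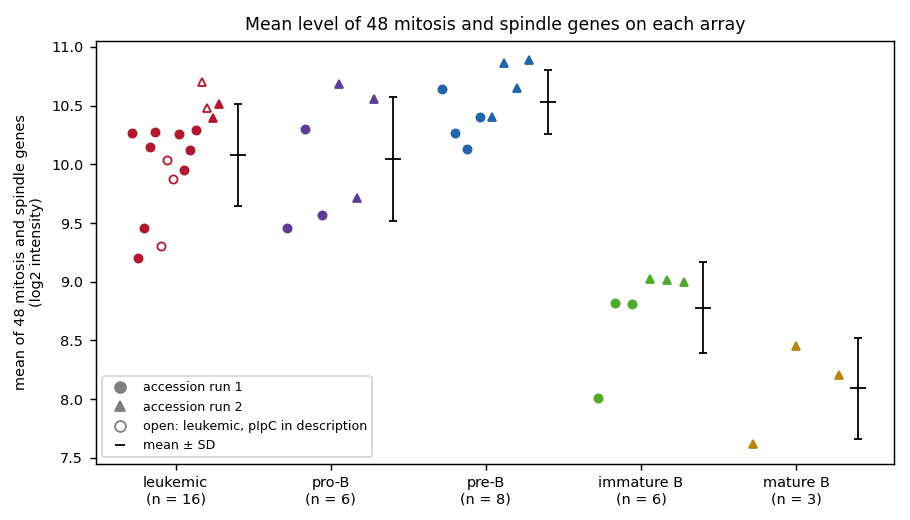
Mean log2 intensity of the 48 mitosis and spindle genes on each array (points), with the group mean and SD beside it; circles are accession run 1, triangles run 2, and open symbols the leukemic arrays with pIpC in the description. Immature and mature B arrays (7.61 to 9.02) lie below all leukemic, pro-B and pre-B arrays (9.20 to 10.89), and in each group with both runs the mean is higher in run 2.

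Run 2 arrays read higher within each group that lies in both runs: 9.93 in run 1 and 10.52 in run 2 for leukemic arrays, 9.78 and 10.32 for pro-B, 10.36 and 10.70 for pre-B, and 8.54 and 9.01 for immature B. The part of the run in the comparisons below was measured by fits within each run, given beside the results they change.

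**Figure D2:**
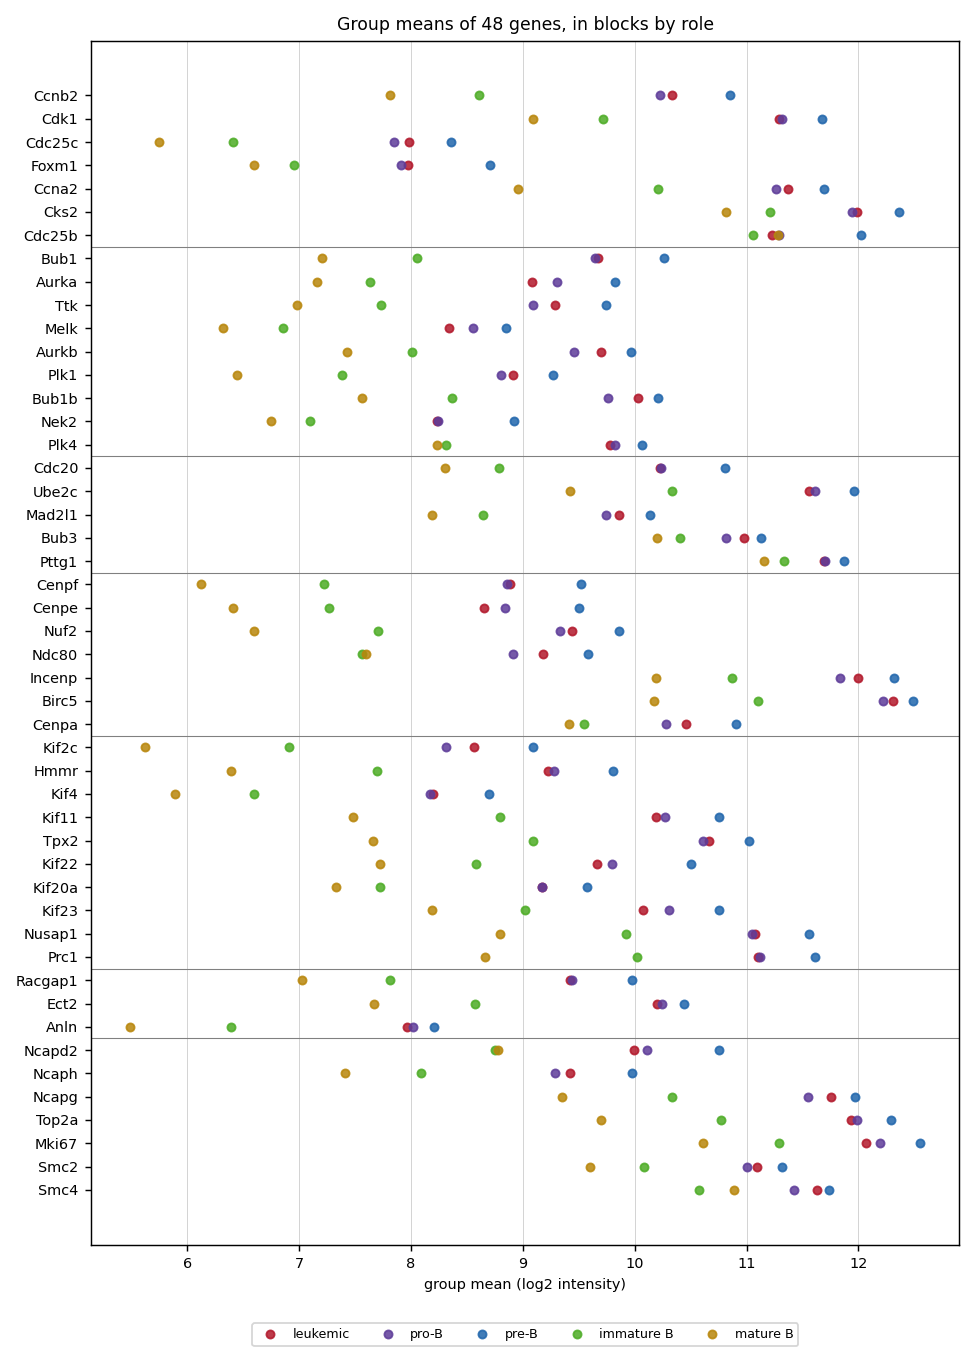
Group mean (log2 intensity) of each of the 48 genes in 5 groups, with the genes in blocks by role. In every row the pre-B point lies farthest right, the leukemic point lies close to the pro-B point, and the immature and mature B points lie to the left of these, except Cdc25b, whose leukemic, pro-B and mature B points fall together.

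The letters of the promoters were examined because these genes moved together between stages. The sequence TTTGAA is the core of the CHR element, which binds the MuvB complex that represses late cell-cycle genes in resting cells, and CCAAT is the site of the activator NF-Y. Windows of 250 bases before to 50 bases after the start site (RefSeq, GRCm38.p6) were at hand for 40 of the 48 genes, in 43 windows. On either strand, TTTGAA was present in 30 of the 43 windows (69.77%), in 12.94% of 12566 windows of the genes measured here and in 17.89% of all 32851 windows. CCAAT was present in 32 of 43 (74.42%), against 37.12% of the windows of measured genes and 37.41% of all windows. Of the 43 windows, 27 held both motifs (62.79%), against 4.998% and 6.953%. Neither motif contains the other. For 8 genes the window held neither motif: Nuf2, Melk, Ncaph, Plk4, Nusap1, Mad2l1, Birc5 and Pttg1, whose immature B minus pre-B differences ran from -2.15 (Nuf2) to -0.54 (Pttg1). Parts of 5 of these windows, all upstream of the start, show how the motifs sit in genes with large and small differences between stages; capitals mark TTTGAA (or its reverse complement TTCAAA) and CCAAT (or ATTGG), read 5' to 3' on the gene's strand.
Mki67 (chr7:135716457-135716582, minus strand): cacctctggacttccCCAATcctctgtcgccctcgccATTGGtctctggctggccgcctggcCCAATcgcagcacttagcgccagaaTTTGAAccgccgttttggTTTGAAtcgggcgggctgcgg
Ccnb2 (chr9:70421556-70421736, minus strand): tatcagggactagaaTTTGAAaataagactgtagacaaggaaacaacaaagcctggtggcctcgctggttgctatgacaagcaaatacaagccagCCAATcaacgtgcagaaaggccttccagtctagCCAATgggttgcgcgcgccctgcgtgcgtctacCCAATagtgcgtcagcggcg
Cdk1 (chr10:69352913-69353135, minus strand): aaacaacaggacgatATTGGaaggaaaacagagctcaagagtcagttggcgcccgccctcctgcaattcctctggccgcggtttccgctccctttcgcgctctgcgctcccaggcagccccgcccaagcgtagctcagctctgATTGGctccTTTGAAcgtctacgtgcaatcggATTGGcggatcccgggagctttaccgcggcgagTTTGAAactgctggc
Ncapd2 (chr6:125191615-125191778, minus strand): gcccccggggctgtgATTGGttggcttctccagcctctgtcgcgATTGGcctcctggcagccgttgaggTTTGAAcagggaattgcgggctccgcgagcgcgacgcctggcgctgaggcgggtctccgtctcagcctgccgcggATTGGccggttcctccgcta
Bub3 (chr7:131560281-131560357, plus strand): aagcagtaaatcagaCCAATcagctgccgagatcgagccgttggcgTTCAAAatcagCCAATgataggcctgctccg
Mki67 and Cdk1 each held 2 copies of TTTGAA and 3 of CCAAT here, Ccnb2 and Ncapd2 each 1 and 3, and Bub3 1 and 2. A letter match is a description and does not show that a factor binds. The 27 genes with TTTGAA in a window had a median immature B minus pre-B difference of -1.92, and the 13 without it one of -1.76. For CCAAT the medians were -1.88 in 29 genes with it and -1.81 in 11 without it. The ranges overlapped in both splits.

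The first set of genes drives entry into mitosis. Cdk1, the kinase itself, read 10.16, 11.36 and 12.21 (lowest, median, highest) on leukemic arrays. Its normal values were 10.53, 11.33 and 12.06 in pro-B, 11.09, 11.65 and 12.30 on pre-B arrays, 8.74, 9.82 and 10.35 in immature B, and 8.42, 9.43 and 9.42 on mature B arrays 1, 2 and 3. The precursor groups and the leukemic group overlapped almost completely, while every immature and mature B array lay below every pre-B array. Cyclin B2 (Ccnb2), a CDK1 partner, read 9.08, 10.42 and 11.42 on leukemic arrays. It read 9.34, 10.19 and 11.20 in pro-B, 10.33, 10.85 and 11.39 on pre-B arrays, 7.53, 8.77 and 9.13 in immature B, and 7.13, 7.90 and 8.41 in mature B cells. Leukemic array 117, the lowest, was the only leukemic array within the immature B range. Cks2, a small CDK-binding protein, had a narrower span: 11.28, 12.01 and 12.60 on leukemic arrays, 11.33, 12.01 and 12.47 in pro-B, 12.08, 12.38 and 12.66 on pre-B arrays, 10.37, 11.31 and 11.65 in immature B, and 10.19, 11.31 and 10.94 in mature B.

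Foxm1, the transcription factor that activates late mitotic genes, read 6.85, 8.14 and 8.84 on leukemic arrays, 7.12, 7.80 and 8.83 in pro-B, 8.23, 8.67 and 9.19 on pre-B arrays, 6.71, 7.01 and 7.06 in immature B, and 6.25, 7.06 and 6.47 in mature B. Immature B cells sat in a narrow low band, and the leukemic arrays spread over nearly the whole range. Cdc25b, a phosphatase that activates CDK1, behaved unlike the other genes of this set. Its values were 9.12, 11.42 and 12.05 on leukemic arrays, 10.95, 11.25 and 11.73 in pro-B, 11.92, 12.01 and 12.12 on pre-B arrays, 10.74, 11.14 and 11.20 in immature B, and 11.30, 11.44 and 11.11 in mature B. The 8 pre-B arrays formed a tight group (SD 0.09) above every pro-B, immature and mature B array, and 14 of 16 leukemic arrays lay below all of them. Cyclin A2 (Ccna2) averaged 11.37 ± 0.33 on leukemic arrays, 11.26 ± 0.41 in pro-B, 11.69 ± 0.11 on pre-B arrays, 10.21 ± 0.36 in immature B and 8.95 ± 0.34 in mature B. Cdc25c, a further CDK1-activating phosphatase, averaged 7.98 ± 0.62 on leukemic arrays, 7.85 ± 0.63 in pro-B, 8.36 ± 0.55 on pre-B arrays, 6.41 ± 0.40 in immature B and 5.74 ± 0.51 in mature B.

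Among the 9 mitotic kinases, Plk1, which acts at centrosomes and kinetochores, read 7.67, 9.08 and 10.03 on leukemic arrays, 7.79, 8.71 and 9.99 in pro-B, 8.60, 9.19 and 10.03 on pre-B arrays, 6.35, 7.54 and 7.82 in immature B, and 5.97, 6.46 and 6.89 in mature B. Only 2 leukemic arrays reached down into the immature B range. Aurka, the spindle-pole kinase, had the widest leukemic spread of the 48 genes (SD 0.90): 7.77, 9.13 and 10.57, against 8.26, 9.24 and 10.56 in pro-B, 9.01, 9.83 and 10.68 on pre-B arrays, 6.32, 7.95 and 8.35 in immature B, and 7.09, 6.96 and 7.44 in mature B. This spread went with the accession run: the 12 run 1 leukemic arrays read 7.77 to 9.27 and the 4 run 2 arrays 10.18 to 10.57. Pre-B arrays read 9.01 to 9.81 in run 1 and 9.86 to 10.68 in run 2. Aurkb, the kinase of the chromosomal passenger complex, read 8.51, 9.74 and 10.40 on leukemic arrays, 8.77, 9.42 and 10.19 in pro-B, 9.37, 9.96 and 10.46 on pre-B arrays, 6.91, 8.19 and 8.44 in immature B, and 7.05, 7.88 and 7.36 in mature B. All 16 leukemic arrays lay above all immature and mature B arrays for Aurkb.

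Bub1, a checkpoint kinase at the kinetochore, read 8.43, 9.79 and 10.32 on leukemic arrays, 8.98, 9.55 and 10.47 in pro-B, 9.88, 10.22 and 10.70 on pre-B arrays, 6.74, 8.25 and 8.68 in immature B, and 6.28, 8.04 and 7.29 in mature B. Of the leukemic arrays, 9 lay below every pre-B array, all of them in run 1, and 15 above every immature B array. The remaining kinases are Bub1b and Ttk of the checkpoint, Nek2 and Plk4 of the centrosome, and Melk. Their leukemic means ran from 8.23 (Nek2) to 10.03 (Bub1b), and their pre-B means from 8.85 (Melk) to 10.21 (Bub1b).

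The checkpoint and APC/C genes hold both large and small stage differences. Mad2l1, the checkpoint protein that inhibits CDC20, read 8.83, 9.95 and 10.27 on leukemic arrays, 9.21, 9.74 and 10.37 in pro-B, 9.83, 10.15 and 10.45 on pre-B arrays, 7.89, 8.74 and 8.95 in immature B, and 7.87, 8.56 and 8.13 in mature B. Cdc20, the APC/C activator, read 8.91, 10.16 and 11.08 on leukemic arrays, 9.37, 10.18 and 11.14 in pro-B, 10.25, 10.82 and 11.39 on pre-B arrays, 7.96, 8.91 and 9.31 in immature B, and 7.83, 8.67 and 8.42 in mature B. For both genes 15 of 16 leukemic arrays exceeded every immature B array. Ube2c, the ubiquitin-conjugating enzyme of the APC/C, read 10.51, 11.69 and 12.06 on leukemic arrays, 11.22, 11.60 and 12.02 in pro-B, 11.69, 11.96 and 12.20 on pre-B arrays, 9.70, 10.45 and 10.60 in immature B, and 8.81, 9.59 and 9.85 in mature B.

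Bub3, which anchors the checkpoint kinases and is also found outside mitosis, changed less. It read 10.35, 11.003 and 11.53 on leukemic arrays, 10.34, 10.83 and 11.24 in pro-B, 10.95, 11.11 and 11.48 on pre-B arrays, 10.22, 10.42 and 10.57 in immature B, and 10.28, 10.22 and 10.09 in mature B. Securin (Pttg1), the inhibitor of separase, read 10.65, 11.70 and 12.56 on leukemic arrays, 11.41, 11.69 and 12.02 in pro-B, 11.10, 11.92 and 12.18 on pre-B arrays, 11.14, 11.32 and 11.53 in immature B, and 11.27, 10.92 and 11.28 in mature B. It was the only one of the 48 genes whose pre-B and immature B arrays overlapped, through pre-B array 2 at 11.10. Leukemic arrays 270 and 117 lay below all immature B arrays for Pttg1.

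**Figure D3:**
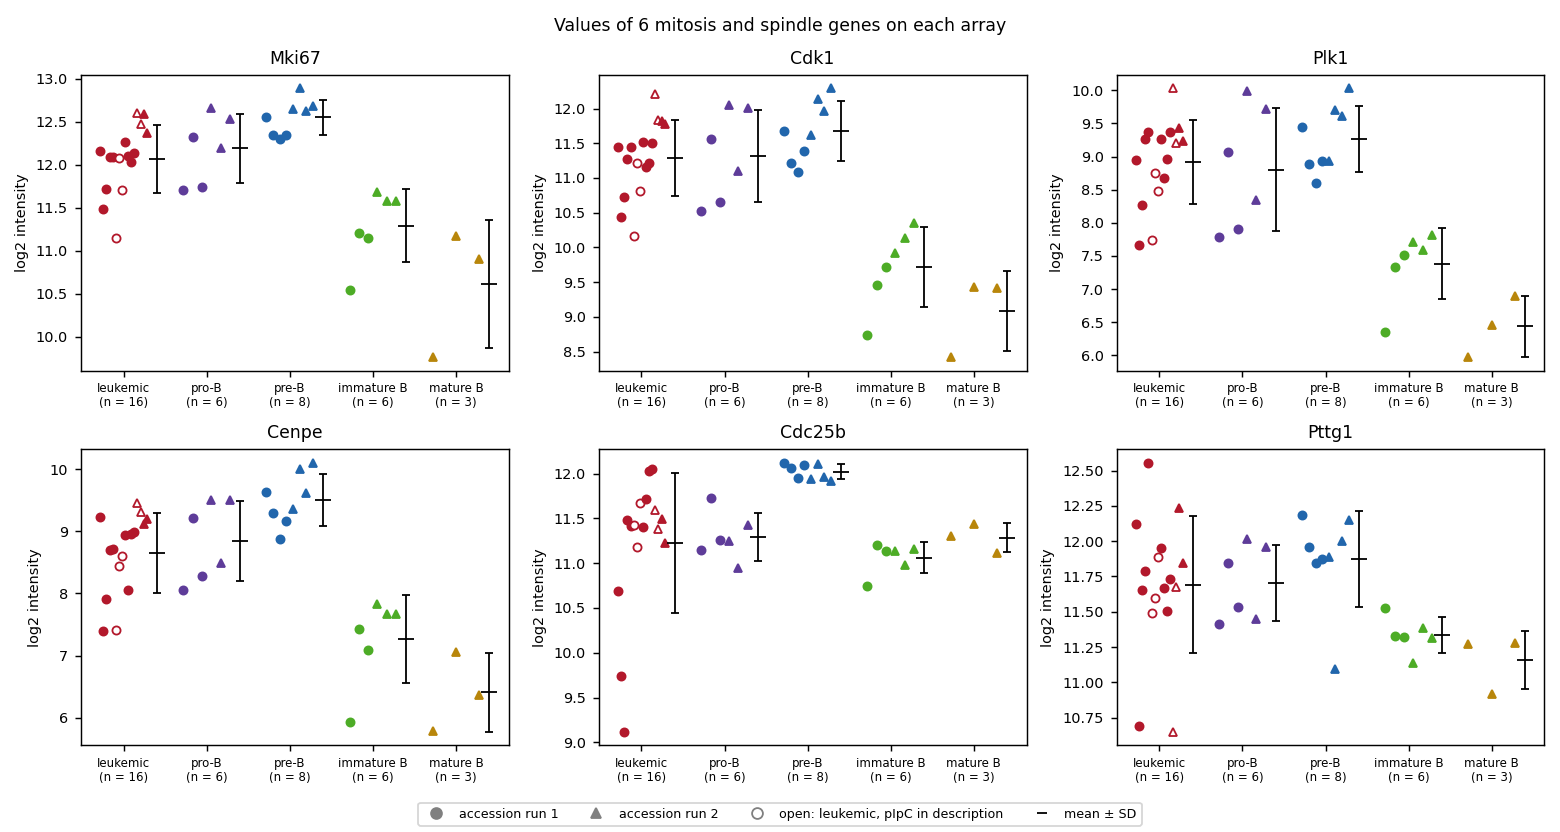
Log2 intensity of Mki67, Cdk1, Plk1, Cenpe, Cdc25b and Pttg1 on each array (points), with group mean and SD; circles are accession run 1, triangles run 2, open symbols leukemic arrays with pIpC. Mki67, Cdk1, Plk1 and Cenpe share a step between pre-B and immature B, Cdc25b has a tight pre-B group (11.92 to 12.12) above the other normal groups, and Pttg1 differs least between stages.

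At the centromere, Cenpa, the centromeric histone H3 variant, read 9.39, 10.55 and 11.07 on leukemic arrays, 9.81, 10.29 and 10.72 in pro-B, 10.61, 10.90 and 11.21 on pre-B arrays, 8.89, 9.68 and 9.72 in immature B, and 9.23, 9.48 and 9.53 in mature B. Cenpe, the kinetochore motor that carries chromosomes to the spindle equator, read 7.40, 8.83 and 9.45 on leukemic arrays, 8.06, 8.85 and 9.51 in pro-B, 8.88, 9.48 and 10.10 on pre-B arrays, 5.93, 7.55 and 7.82 in immature B, and 5.79, 7.06 and 6.38 in mature B. For Cenpe and Cenpa alike, 8 leukemic arrays lay below every pre-B array, all of them in run 1. Birc5 (survivin), a passenger-complex subunit, read 11.65, 12.39 and 12.65 on leukemic arrays, 11.93, 12.24 and 12.49 in pro-B, 12.29, 12.51 and 12.65 on pre-B arrays, 10.42, 11.21 and 11.36 in immature B, and 9.50, 10.63 and 10.38 in mature B. Its leukemic arrays reached the top of the pre-B range. Cenpf of the outer kinetochore averaged 8.88 ± 0.72 on leukemic arrays, 8.86 ± 0.70 in pro-B, 9.52 ± 0.41 on pre-B arrays, 7.22 ± 0.74 in immature B and 6.12 ± 0.74 in mature B. Nuf2, which with Ndc80 binds microtubules, averaged 9.44 ± 0.59 on leukemic arrays, 9.33 ± 0.50 in pro-B, 9.86 ± 0.32 on pre-B arrays, 7.71 ± 0.62 in immature B and 6.60 ± 0.62 in mature B. Incenp, the passenger-complex scaffold, was steadier within groups, at 11.99 ± 0.24 on leukemic arrays, 11.83 ± 0.38 in pro-B, 12.32 ± 0.11 on pre-B arrays, 10.87 ± 0.25 in immature B and 10.19 ± 0.55 in mature B.

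Kif11, the motor that pushes spindle poles apart, read 8.71, 10.33 and 10.96 on leukemic arrays, 9.56, 10.31 and 11.10 in pro-B, 10.19, 10.80 and 11.20 on pre-B arrays, 7.88, 8.95 and 9.15 in immature B, and 6.75, 7.93 and 7.78 in mature B. Kif20a, a motor of the central spindle, read 8.20, 9.17 and 10.42 on leukemic arrays, 8.26, 9.05 and 10.34 in pro-B, 8.88, 9.62 and 10.28 on pre-B arrays, 6.96, 7.89 and 8.18 in immature B, and 6.84, 7.57 and 7.57 in mature B. The leukemic and pro-B ranges were nearly the same for Kif20a, and both were wider than the pre-B range. Kif22, which moves chromosome arms, read 8.53, 9.61 and 10.88 on leukemic arrays, 8.66, 9.74 and 10.96 in pro-B, 9.85, 10.46 and 11.30 on pre-B arrays, 7.44, 8.77 and 9.02 in immature B, and 7.19, 8.20 and 7.78 in mature B. Tpx2, the activator and spindle anchor of Aurora A, read 9.79, 10.72 and 11.19 on leukemic arrays, 9.97, 10.57 and 11.26 in pro-B, 10.67, 11.04 and 11.38 on pre-B arrays, 8.51, 9.10 and 9.65 in immature B, and 7.36, 7.85 and 7.78 in mature B. The Tpx2 groups separated fully at each side: mature B below immature B, and immature B below every pre-B, pro-B and leukemic array. Prc1, the bundler of central-spindle microtubules, read 10.31, 11.16 and 11.43 on leukemic arrays, 10.55, 11.16 and 11.62 in pro-B, 11.26, 11.62 and 11.93 on pre-B arrays, 9.71, 9.91 and 10.38 in immature B, and 8.02, 8.88 and 9.08 in mature B. Kif2c, a microtubule depolymerase, averaged 8.56 ± 0.46 on leukemic arrays, 8.31 ± 0.81 in pro-B, 9.09 ± 0.21 on pre-B arrays, 6.91 ± 0.42 in immature B and 5.62 ± 0.14 in mature B. Its 3 mature B arrays, at 5.70, 5.46 and 5.70, lay below every other array. The other members of this set are the motors Kif4 and Kif23 and the microtubule-associated proteins Nusap1 and Hmmr, whose immature B means lay between 6.59 (Kif4) and 9.92 (Nusap1).

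For cytokinesis, Ect2, the exchange factor that activates RhoA at the cleavage plane, read 9.16, 10.23 and 10.86 on leukemic arrays, 9.71, 10.26 and 10.82 in pro-B, 10.21, 10.41 and 10.67 on pre-B arrays, 7.92, 8.65 and 8.96 in immature B, and 7.15, 7.91 and 7.96 in mature B. For Ect2, 3 leukemic arrays, all of them in run 1, exceeded every pre-B array and none lay within the immature B range. Racgap1, the partner of Kif23 in centralspindlin, averaged 9.42 ± 0.39 on leukemic arrays, 9.44 ± 0.54 in pro-B, 9.97 ± 0.34 on pre-B arrays, 7.81 ± 0.63 in immature B and 7.03 ± 0.56 in mature B. Anillin (Anln), which organises the contractile ring, averaged 7.96 ± 0.66 on leukemic arrays, 8.01 ± 0.62 in pro-B, 8.20 ± 0.57 on pre-B arrays, 6.39 ± 0.61 in immature B and 5.49 ± 0.49 in mature B.

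Among the genes of chromosome structure, Mki67, which coats mitotic chromosomes and is the common marker of cycling cells, read 11.15, 12.10 and 12.60 on leukemic arrays, 11.71, 12.25 and 12.66 in pro-B, 12.30, 12.59 and 12.89 on pre-B arrays, 10.55, 11.39 and 11.68 in immature B, and 9.77, 11.17 and 10.91 in mature B. Of the 16 leukemic arrays, 12 lay below every pre-B array. These were the 12 run 1 arrays, and the 4 run 2 arrays read 12.37 to 12.60. Pre-B arrays read 12.30 to 12.55 in run 1 and 12.62 to 12.89 in run 2. Top2a, the topoisomerase that untangles sister chromatids, read 11.14, 11.99 and 12.48 on leukemic arrays, 11.70, 11.94 and 12.32 in pro-B, 12.14, 12.24 and 12.49 on pre-B arrays, 10.22, 10.86 and 11.03 in immature B, and 8.87, 10.42 and 9.82 in mature B. A second, dim Top2a probe set (mean 3.53 over 39 arrays) did not follow these steps. The condensin subunit Smc4 read 11.01, 11.63 and 11.94 on leukemic arrays, 11.07, 11.42 and 11.80 in pro-B, 11.52, 11.79 and 11.97 on pre-B arrays, 10.23, 10.61 and 10.79 in immature B, and 10.83, 10.93 and 10.90 in mature B. For Smc4 all 3 mature B arrays lay above all 6 immature B arrays, although the difference of 0.31 was not called (limma adjusted p = 0.279). Ncapd2, of condensin I, read 8.88, 9.87 and 11.04 on leukemic arrays, 9.24, 9.97 and 11.11 in pro-B, 10.14, 10.78 and 11.39 on pre-B arrays, 7.99, 8.86 and 9.21 in immature B, and 8.46, 9.11 and 8.77 in mature B. The other condensin genes Smc2, Ncapg and Ncaph had leukemic means of 11.10, 11.76 and 9.42 and pre-B means of 11.31, 11.97 and 9.98.

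Immature B cells had less of every one of these transcripts than pre-B cells. All 48 genes fell at adjusted p under 0.05, where 8.70% of all genes were called lower. The median difference was -1.86 (range -2.30 to -0.54), against -0.056 over all genes. For 47 of the 48 no immature B array overlapped a pre-B array, against 4.62% of all genes. Cenpf fell most (difference -2.30, SE 0.31, 4.91-fold). Next came Ccnb2 (-2.25, SE 0.29), Cenpe (-2.24), Bub1 (-2.20), Aurka (-2.19) and Kif2c (-2.19). By role the median was -1.75 for entry genes, -1.96 for kinases, -1.49 for checkpoint and APC/C genes, -2.02 for centromere and kinetochore genes, -1.93 for motors and microtubule factors, -1.87 for cytokinesis and -1.52 for chromosome structure. The smallest differences were those of Pttg1 (-0.54, SE 0.13, limma adjusted p = 0.00505), Bub3 (-0.73) and Cdc25b (-0.96), and the other Pttg1 probe sets gave -0.29 and -0.89. Pttg1 lost its call within run 2, in a fit of all 39 arrays and with probe sets ending in _x_at, _s_at or _a_at (suffixed probe sets) left out. Each array left out in turn kept all 48 calls. With arrays centred on their medians all 48 also fell, while the split over all genes turned to 996 higher and 1395 lower, against 1348 and 1078 uncentred. Beside this step, the mean of 6 IgM-positive B-cell markers was 10.81 in immature B and 8.60 on pre-B arrays, that of 9 pro-B and pre-B markers 7.54 and 9.50, and that of 16 myeloid markers 9.11 and 7.91. The part of other cells in the result was not tested.

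**Figure D4:**
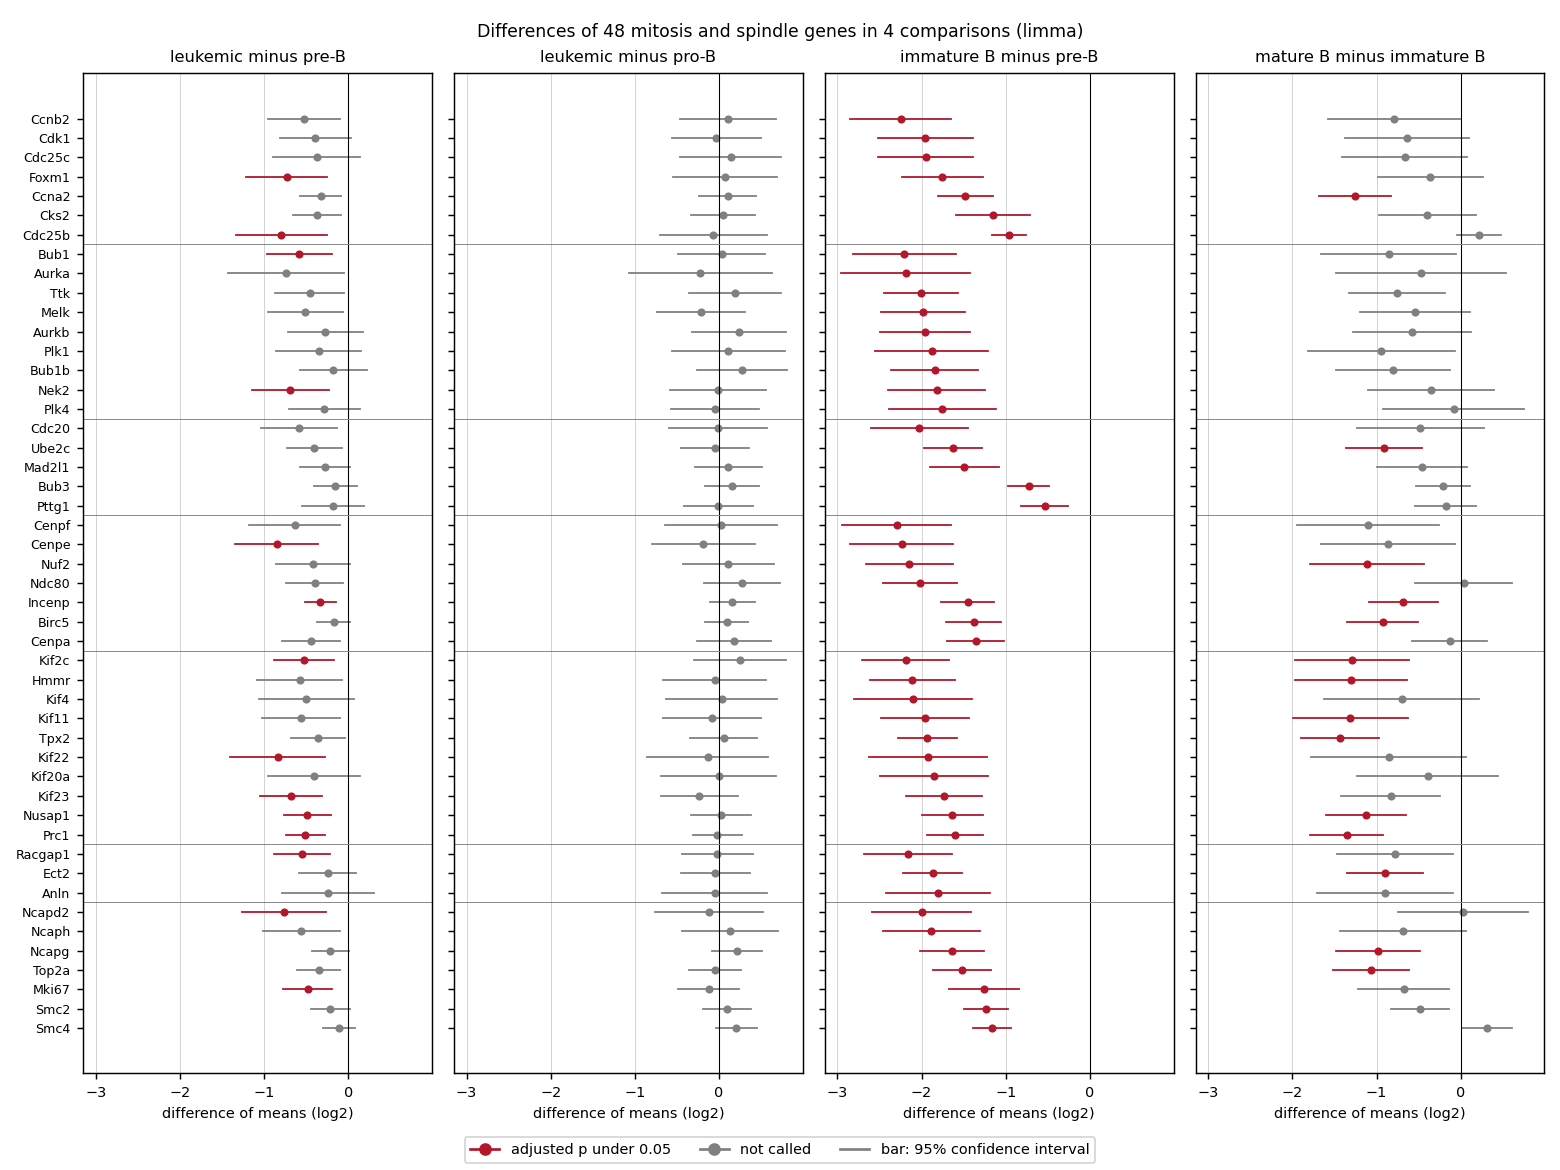
Difference of mean log2 intensity for each of the 48 genes in 4 comparisons (points), with 95% confidence intervals of limma; red marks adjusted p under 0.05. All 48 points are red and left of 0 for immature B minus pre-B, 14 are red for leukemic minus pre-B and for mature minus immature B, and none is red for leukemic minus pro-B.

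Mature B cells had lower means than immature B cells for 44 of the 48 genes, and 14 fell at adjusted p under 0.05, where 3.29% of all genes were called lower. None rose. The median difference was -0.73 (range -1.43 to 0.31), against 0.045 over all genes. Tpx2 fell most (-1.43, SE 0.23, 2.70-fold, limma adjusted p = 0.000288), then Prc1 (-1.35), Kif11 (-1.31), Hmmr (-1.30), Kif2c (-1.29) and Ccna2 (-1.26). The other 8 were Nusap1 (-1.13), Nuf2 (-1.11), Top2a (-1.07), Ncapg (-0.98), Birc5 (-0.93), Ube2c (-0.91), Ect2 (-0.90) and Incenp (-0.68). Of the 10 motors and microtubule factors 6 fell, and of the 9 kinases none, with Plk1 at -0.94 (limma adjusted p = 0.251). For Tpx2, Prc1, Kif2c and Ccna2 all 3 mature B arrays lay below all immature B arrays, which makes 4 of 48, where 6.15% of all genes did so. The count changed most with mature B array 1, which lay below its group median for 42 genes. Without it 3 genes fell (Tpx2, Prc1 and Ccna2). The calls over all genes, in either direction, also went from 651 to 241 in that fit. Without immature B array 4, the lowest immature B array, 18 fell, and 641 of all genes were called. Within run 2, which holds 3 arrays of each group, the median was -1.01 and 16 fell, where 301 of all 12393 genes did. Beside this step, 2 of 9 pro-B and pre-B markers fell (median -0.96), as did 1 of 6 plasma cell markers (median -0.47), and their part in the result was not tested.

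Pre-B cells had higher means than pro-B cells for all 48 genes, and 12 rose at adjusted p under 0.05, where 17.9% of all genes were called higher. None fell. The median difference was 0.49 (range 0.17 to 0.80), against 0.11 over all genes. Foxm1 had the largest difference (0.80, SE 0.23, limma adjusted p = 0.0116), followed by Kif2c (0.78), Cdc25b (0.73), Ndc80 (0.67), Ttk (0.65) and Cenpa (0.62). The others called were Nusap1 (0.51), Prc1 (0.49), Incenp (0.49), Ccna2 (0.43), Smc4 (0.32) and Bub3 (0.31). Cdc25b had the smallest adjusted p (limma, 3.35e-06), with all 8 pre-B arrays above all 6 pro-B arrays. Cdc25b, Cenpa and Foxm1 kept their call with each array left out in turn, but 0 of the 12 genes kept it under every other alternative: Cdc25b lost it in a fit of all 39 arrays, Cenpa within both runs, and Foxm1 within run 2 and without suffixed probe sets. The number called was 5, 5 and 3 without pro-B array 4, 6 or 2, and 20 without pro-B array 1. Over all genes, in the same order, 3840, 3413, 3190 and 3472 were called in either direction, against 4162 with every array. The mean of 13 T and NK markers was 5.32 to 5.92 on pre-B arrays, and that of 9 plasmacytoid dendritic cell markers 7.06 to 9.64. On pro-B arrays 2, 4 and 6, which read 9.71, 9.46 and 9.57 over the 48 genes, the T and NK mean was 9.19, 8.96 and 9.01. On pro-B arrays 1, 3 and 5, which read 10.68, 10.55 and 10.30 over the 48 genes, it was 7.80, 7.75 and 7.47. The plasmacytoid mean was 12.01, 11.82 and 11.85 on arrays 2, 4 and 6, and 10.97, 10.81 and 10.67 on arrays 1, 3 and 5. The part of such cells in the result was not tested. Within run 1 the median was 0.57 and 7 genes rose, where 830 of all 12393 genes did. Within run 2 it was 0.39 and 1 rose, where 803 of all genes did. With the run as a covariate 24 rose, where 3334 of all genes did. Centring each array on its median moved the median over all genes to 0.38, and 46 of the 48 then rose, with a split over all genes of 6124 higher and 1327 lower, against 2214 and 1948 uncentred.

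Leukemic cells had lower means than normal pre-B cells, their surface-marker counterpart, for all 48 genes. Of these, 14 fell at adjusted p under 0.05, where 7.53% of all genes were called lower, and none rose. The median difference was -0.43 (range -0.85 to -0.11), against -0.0069 over all genes. Cenpe fell most (-0.85, SE 0.24, 1.81-fold, limma adjusted p = 0.0155), with means of 8.65 ± 0.65 on leukemic and 9.51 ± 0.42 on pre-B arrays. Kif22 (-0.84), Cdc25b (-0.79), Ncapd2 (-0.76) and Foxm1 (-0.73) followed, and then Nek2 (-0.69), Kif23 (-0.68), Bub1 (-0.58), Racgap1 (-0.55), Kif2c (-0.53), Prc1 (-0.51), Nusap1 (-0.48), Mki67 (-0.48) and Incenp (-0.33). Aurka differed by -0.74 and was not called (SE 0.33, limma adjusted p = 0.148), with an SD of 0.90 among leukemic and 0.63 among pre-B arrays. In both groups all run 2 arrays lay above all run 1 arrays for Aurka. At the other end, Smc4 (-0.11), Bub3 (-0.15), Birc5 (-0.17), Bub1b (-0.18) and Pttg1 (-0.18) were not called, and a second Bub3 probe set gave 0.18. Motors and microtubule factors held 5 of the calls out of 10 genes, and checkpoint and APC/C genes 0 out of 5.

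Of the 14 genes called lower in leukemic cells, 7 kept the call with each array left out in turn (Cenpe, Incenp, Kif23, Mki67, Nusap1, Prc1 and Racgap1), and 0 kept it under every other alternative, the fits within 1 run included. Cenpe, Mki67 and Racgap1 lost the call within both runs, Nusap1 within run 1, and Incenp, Kif23 and Prc1 within run 2. The number called was 9, 7, 8 and 8 without pre-B array 1, 2, 3 or 4, which are the run 2 arrays, and 18 without leukemic array 270. Over all genes, in the same order, 1617, 1792, 1700, 1900 and 1928 were called in either direction, against 1987 with every array. Within run 1 the median was -0.43 and 4 genes fell, where 384 of all 12393 genes did. Within run 2, with 4 leukemic and 4 pre-B arrays, it was -0.18 and 4 genes fell, where 844 of all genes did. There 10 of the 48 had a higher mean in leukemic cells. With the run as a covariate the median was -0.34 and 12 genes fell, where 1209 of all genes did. Without leukemic arrays 116 and 122 the median was -0.39 and 13 genes fell, where 1022 of all genes did. The calls of Ncapd2 and Kif22 were lost there. Group means of other-cell markers were not higher in leukemic cells: 6.60 and 7.91 for the 16 myeloid markers in leukemic and pre-B cells, 5.51 and 5.59 for the 13 T and NK markers, and 7.49 and 8.88 for the 9 plasmacytoid dendritic cell markers. Of the 16 myeloid markers 4 had a higher mean in leukemic cells, of the 13 T and NK markers 6, and of the 9 plasmacytoid markers 0. Single arrays also read higher: array 122 had a myeloid mean of 9.02, against 8.85 on the highest pre-B array. Array 153 had a T and NK mean of 6.74, against 5.92 on the highest pre-B array. Array 122 also read 9.44 for the plasmacytoid markers and 7.02 for the 9 pro-B and pre-B markers. The 6 B-lineage markers averaged 9.87 in leukemic and 10.56 in pre-B cells. The part of these populations in the result was not tested.

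Against pro-B cells, leukemic cells showed no called difference: limma called 0 of the 48 genes in either direction and 0 had an unadjusted p under 0.05, where 15.7% of all genes were called. The median difference was 0.028 (range -0.23 to 0.27), against 0.13 over all genes, with 26 genes higher and 22 lower. The run changed this value: the median was 0.18 within run 1 (39 of 48 genes higher), 0.20 within run 2 (43 higher) and 0.19 with the run as a covariate (39 higher, 1 called). The largest were Bub1b (0.27, 95% interval -0.27 to 0.81), Ndc80 (0.27), Kif2c (0.25) and Aurkb (0.24), and on the lower side Kif23 (-0.23, 95% interval -0.69 to 0.23), Aurka (-0.22) and Melk (-0.22). Smc4 had the smallest adjusted p (limma, 0.218). These intervals leave room for differences as large as those between leukemic and pre-B cells, so a missed threshold does not show equal levels. Centring each array on its median moved the median over all genes to 0.41 and that of the 48 genes to 0.32, all 48 then being higher in leukemic cells and 5 called, with 5537 genes called higher and 768 lower over all genes, against 1005 and 945 uncentred. The T and NK marker mean was 5.51 in leukemic and 8.36 in pro-B cells and the plasmacytoid dendritic cell mean 7.49 and 11.36, and their part in the result was not tested. The same 16 leukemic arrays enter both this comparison and the one with pre-B cells.

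Against the IgM-positive stages leukemic cells had far more of these transcripts. Compared with immature B cells, 46 genes rose, where 12.3% of all genes were called higher, with a median difference of 1.41 (range 0.16 to 1.73) against 0.073 over all genes. Nuf2 (1.73, SE 0.27, 3.32-fold), Ccnb2 (1.73), Aurkb (1.69), Bub1b (1.67) and Kif2c (1.66) had the largest differences. For 19 genes every leukemic array exceeded every immature B array, against 2.96% of all genes. Compared with mature B cells, 46 genes again rose, where 10.0% of all genes were called higher, with a median of 2.17 (range -0.06 to 3.0) against 0.0095. Here Tpx2 (3.0, SE 0.25, 8.0-fold), Kif2c (2.94), Hmmr (2.84), Nuf2 (2.84) and Cenpf (2.76) led, and 39 genes showed no overlap, against 6.10% of all genes. The 2 genes not called in either comparison were Cdc25b (0.16 against immature B, -0.06 against mature B) and Pttg1 (0.36 and 0.53). Kif22 lost its call against immature B without immature B array 4. Against mature B, Aurka, Cenpa, Foxm1, Ncapd2 and Nek2 lost theirs without mature B array 1, and Foxm1 and Ncapd2 also without array 3. Within run 2, which holds all mature B arrays, the median against mature B was 2.63 and 46 genes rose, where 2063 of all 12393 did. Against immature B the median was 1.48 within run 1, with 45 genes rising where 938 of all genes did. Within run 2 it was 1.60, with 47 rising where 2231 of all genes did. Centring turned the split over all genes in the immature B comparison to 1867 higher and 1175 lower, against 1526 and 1535 uncentred, and moved the median over all genes in the mature B comparison to 0.14, with 46 of the 48 genes called in each. The myeloid marker mean was 6.60 in leukemic, 9.11 in immature B and 9.17 in mature B cells, and its part in the result was not tested.

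Leukemias with and without pIpC in the description did not differ by a call. Limma called 0 of the 48 genes and 0% of all genes, and 0 of the 48 but 603 of all 12393 genes had an unadjusted p under 0.05. The mean over the 48 genes was 10.08 ± 0.55 on the 5 arrays with pIpC and 10.08 ± 0.40 on the 11 without. Mki67 read 11.15, 12.08, 11.71, 12.60 and 12.48 on A992, A1322, A1507, 270 and A46, and 11.48, 12.10 and 12.59 (lowest, median, highest) without pIpC. Aurka read 7.78, 8.66, 7.90, 10.57 and 10.18 on the same 5 arrays, and 7.77, 9.17 and 10.36 without pIpC. For both genes the arrays with pIpC spanned nearly the whole leukemic range, with the highest values on 270 and A46, which lie in run 2. Differences ran from -0.38 for Ect2 (95% interval -0.84 to 0.09) to 0.35 for Cenpa (95% interval -0.13 to 0.83), and Top2a had the smallest unadjusted p (limma, 0.0621, difference -0.33). Over the 48 genes the median difference was -0.26 within run 1 (A992, A1322 and A1507 with pIpC) and 0.14 within run 2 (270 and A46), with 0 genes called in either.

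For the 48 genes the leukemic arrays differed among themselves more than the pre-B arrays did, as did the arrays of the other normal groups. The SD among leukemic arrays exceeded that among pre-B arrays for all 48 genes, with medians of 0.52 and 0.34. It also exceeded the pre-B SD for 47 genes in pro-B (median 0.58), 39 in immature B (0.41) and 33 in mature B cells (0.51). The leukemic arrays lie 12 in run 1 and 4 in run 2, and the part of the run in these SDs was not tested. Over all genes the median SD was also higher among leukemic than among pre-B arrays, at 0.43 and 0.31. Arrays 117 and 122 lay below the leukemic median for 48 of 48 genes, A992 for 46 and A1507 for 43, while 270 did so for 3, 17 for 6 and 228 for 9. The 4 run 2 arrays (270, 17, A46 and 15) had the highest leukemic means over the 48 genes, 10.40 to 10.70. The highest run 1 array, 228, read 10.29, so the run and the leukemia cannot be told apart in this ranking. Single genes broke this order: Pttg1 was 10.65 on array 270, the lowest leukemic value, and Cdc25b was 9.12 on array 122 and 9.74 on array 117, against a leukemic median of 11.42. Pro-B arrays split as widely, with arrays 4, 2 and 6 below the pro-B median for 48, 47 and 46 genes and arrays 5, 1 and 3 for 1, 2 and 0.

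**Figure D5:**
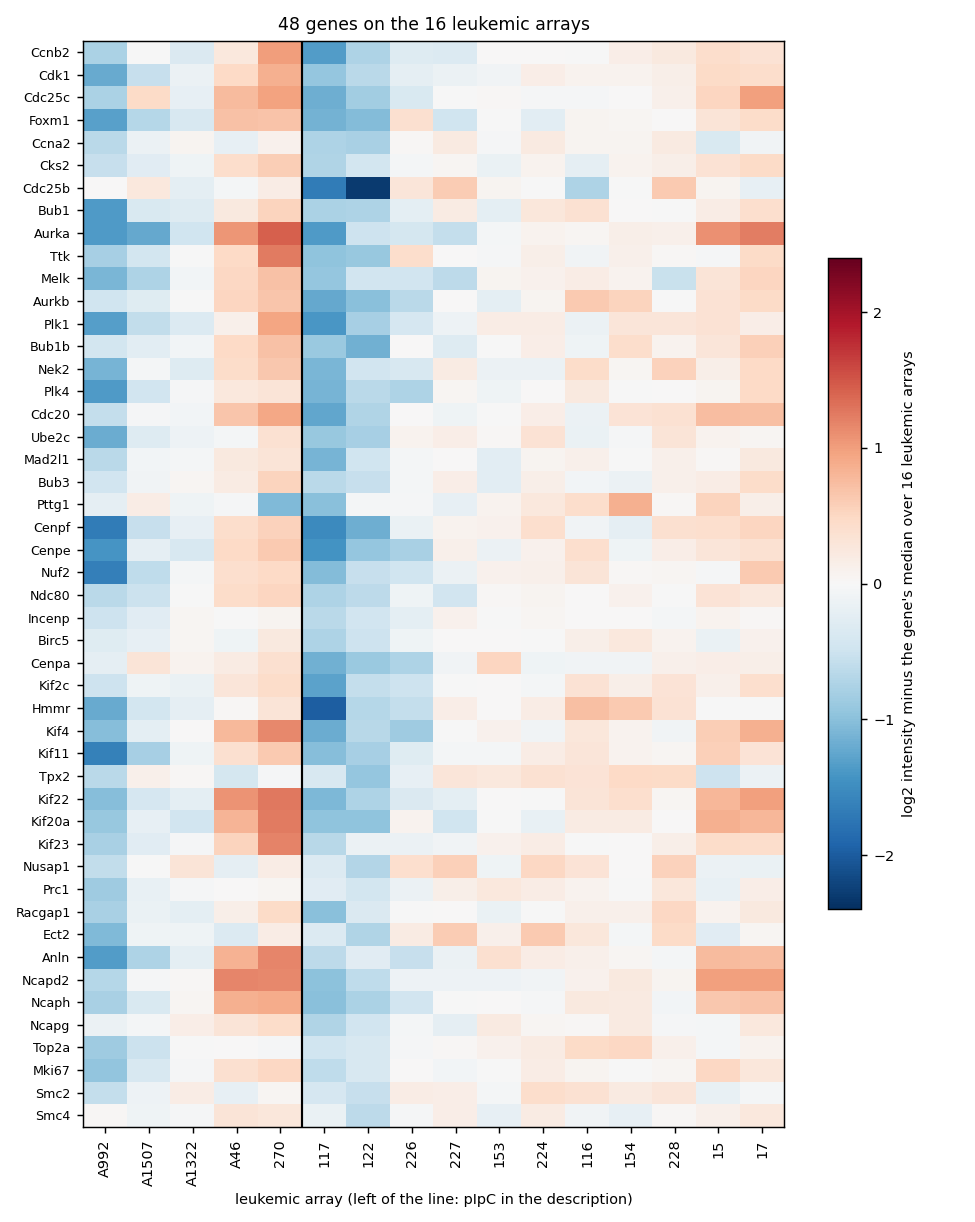
Log2 intensity of each of the 48 genes (rows, in blocks by role) on each leukemic array (columns) minus the gene's median over the 16 arrays; arrays left of the line have pIpC in the description and within each side run by mean level. Blue columns A992, 117 and 122 are low and the red column 270 is high across most rows, with Pttg1 low on 270 and Cdc25b lowest on 122. Arrays A992, 117 and 122 lie in accession run 1 and array 270 in run 2.

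Genes of the same processes outside the 48 were read from lists chosen by function. Of 41 other spindle and kinetochore genes, 38 fell and 0 rose in immature against pre-B cells, where 8.70% of all genes fell, led by Psrc1 (-2.51), the cohesin protector Cdca5 (-2.42) and Spag5 (-2.37), with a median of -1.84. In leukemic against pre-B cells 8 fell, where 7.53% of all genes did, and 0 rose, led by Psrc1 (-1.89), Cenpm (-0.96) and the spindle-pole protein Aspm (-0.83). In leukemic against pro-B cells 1 fell, the kinase Nek6 (-3.42), which also fell in pre-B against pro-B cells (-3.49). Nek6 averaged 5.98 ± 0.92 on leukemic arrays and 5.91 ± 0.29 in pre-B cells, against 9.40 ± 0.78 in pro-B cells, where it ran between 8.27 on array 5 and 10.33 on array 2. These are the pro-B arrays with the lowest and the highest means of the T and NK markers (7.47 and 9.19) and of the plasmacytoid markers (10.67 and 12.01), whose part in the difference was not tested. In pre-B against pro-B cells 10 of the 41 rose, among them Cenpm (0.81) and Aspm (0.72), where 17.9% of all genes rose. In mature against immature B cells 4 fell, where 3.29% of all genes did, led by Pbk (-1.39), the NDC80-complex subunit Spc25 (-1.31) and Cdca5 (-1.19).

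Of 17 measured factors that control mitotic genes, 8 fell and 0 rose in immature against pre-B cells (median -0.27), where 8.70% of all genes fell, led by the repressor E2f8 (-1.89), B-Myb (Mybl2, -1.72), the partner of MuvB at late cell-cycle promoters, and the activator E2f1 (-1.26). In leukemic against pre-B cells 7 fell, led by the retinoblastoma gene Rb1 (-0.91), E2f1 (-0.71) and E2f8 (-0.47), where 7.53% of all genes fell, and 0 rose. E2f1 averaged 8.11 ± 0.52 on leukemic, 8.53 ± 0.32 on pro-B, 8.81 ± 0.39 on pre-B, 7.55 ± 0.71 on immature B and 6.63 ± 0.63 on mature B arrays. Its stage order was that of most of the 48 genes, with the leukemic mean below pro-B. Mybl2 was not called between leukemic and pre-B cells, with means of 6.99 ± 0.91 and 7.20 ± 0.79. In pre-B against pro-B cells 4 of the 17 rose, led by Rb1 (0.73) and the MuvB subunit Lin9 (0.68), where 17.9% of all genes rose.

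Of 14 measured core subunits of the APC/C, 3 fell in immature against pre-B cells (median -0.20), where 8.70% of all genes fell, 0 were called between leukemic and pre-B cells (median 0.0023) and 0 between mature and immature B cells (median 0.048). In leukemic cells 4 rose against immature B cells, led by Anapc15 (0.81), where 12.3% of all genes rose, and 4 against mature B cells, led by Anapc11 (0.92), where 10.0% did. Its activator Cdc20 and enzyme Ube2c, described above, fell by 2.03 and 1.63 in immature B cells. Of 7 genes of cohesin and its regulators, which hold sister chromatids together, 6 fell in immature against pre-B cells, where 8.70% of all genes did, led by Smc1a (-0.82), Rad21 (-0.70) and Smc3 (-0.68). In leukemic against pre-B cells 1 fell, the cohesin loader Nipbl (-0.46), where 7.53% of all genes did.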

How the data were processed

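RNA was extracted with Trizol and amplified from small amounts before labelling, per the labels' protocols. The deposited table holds 1 intensity per probe set and array on a linear scale. The submitters' processing notes name RMA as the tool behind these deposited intensities; no version is given in the sources used here, nor whether all arrays were normalized together. The deposited intensities were taken to log2 here, with no offset. Arrays have no read depth; their number limits the precision. Of 22690 probe sets, 64 controls, 691 with several gene symbols and 1555 with none were left out. The remaining 20380 gave 12393 genes, each read from its brightest probe set over 39 arrays (4956 genes had more than 1). No group mean of the 48 genes lay in the dimmest 25% (below 4.34).

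Comparisons used limma 3.58.1 in R 4.3.3 (lmFit, eBayes with intensity trend, Benjamini-Hochberg over all genes). Leukemic cells were compared with each normal stage, and pIpC with no pIpC, in fits of the arrays concerned, and the normal stages in 1 fit of the normal arrays. Comparisons that share a group share its arrays. The script was tested on simulated data. The members, role sets and other lists (other spindle and kinetochore genes, control factors, APC/C core, cohesin, and markers of myeloid, T and NK, plasmacytoid dendritic, erythroid, plasma, B-lineage, pro-B and pre-B and IgM-positive B cells) were chosen with earlier results of these data known. Values on every array are given for a preset list and for the 5 genes with the largest called difference in each comparison, and of other lists up to 3 called genes with the largest difference. Groups come from the labels. Replicate numbers were not taken to pair the samples: over 27 same-number pairs of normal arrays the correlation of deviations ran from -0.74 to 0.66 (median 0.25, 16 over 0.1), against a median of -0.07 over 165 other pairs (57 over 0.1). The numbers partly carry the accession run: normal arrays 1 to 3 lie in run 2 and those from 5 up in run 1. Alternatives were quantile normalization, a filter on dim genes (dimmest 40%), the mean of all probe sets, suffixed probe sets (_x_at, _s_at or _a_at) left out, 1 fit of all arrays, no trend, centring, the accession run, the replicate block and each array left out. The specificity of the suffixed probe sets was not tested.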

Additional observations from a re-analysis of the deposited data

Results flagged for a closer look

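The 48 genes and their mean were examined for a single array far from the others. This was done on the pro-B, pre-B and immature B arrays and on the leukemic arrays with pIpC. Of these 196 sets of values 23 held one, and chance alone flags about 1 in 20 sets. The sets share arrays and are not independent. Immature B array 4 accounted for 21 of them, always on the low side. Its mean over the 48 genes was 8.01, with the other 5 immature B arrays between 8.81 and 9.02. The genes concerned were Bub1b (7.64), Mad2l1 (7.89), Aurkb (6.91), Plk1 (6.35), Plk4 (6.6), Birc5 (10.42), Incenp (10.36), Cenpa (8.89), Cenpf (5.83), Kif11 (7.88), Kif22 (7.44), Top2a (10.22), Nusap1 (9.2), Ndc80 (7.07), Nuf2 (6.46), Racgap1 (6.54), Hmmr (6.73), Ncapg (9.79), Ncaph (7.17) and Melk (5.93). Without this array all 48 genes still fell in immature against pre-B cells.

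Pttg1 was 11.1 on pre-B array 2, with the other pre-B arrays between 11.85 and 12.18, although that array had the second highest mean over the 48 genes in its group. Prc1 was 10.31 on leukemic array A992, with the other arrays with pIpC between 10.99 and 11.21.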

How the results depend on the processing

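Single genes were repeated only where the main fit of a comparison called them, so calls gained under an alternative are not counted. Single arrays left out are not counted here either. Of the 14 genes called for leukemic against pre-B, and of the 12 for pre-B against pro-B, 0 kept the call under every alternative. Over all comparisons 1711 of the repeated values kept their direction and side of the threshold, 99 lost the call and 4 changed sign. The 4 were all of Top2a with suffixed probe sets left out, which leaves its dim second probe set: -0.0258 for leukemic minus immature B, -0.15 for leukemic minus mature B, 0.13 for immature B minus pre-B and 0.12 for mature minus immature B. The number of genes called in leukemic against pre-B cells was 14, and 8 without suffixed probe sets (36 genes left), 9 with arrays centred, 4 within run 1 and 4 within run 2. Over all genes, in the same order, 933, 708 (of 10529), 808, 384 and 844 were called lower. Leukemic against pro-B gave 0, and 5 with arrays centred and 1 with the run as a covariate. Over all genes, in the same order, 1005, 5537 and 1335 were called higher. Pre-B against pro-B gave 12, and 19 with quantile normalization, 6 without suffixed probe sets, 6 in 1 fit of all arrays, 46 with arrays centred, 24 with the run as a covariate, 7 within run 1 and 1 within run 2. Over all genes, in the same order, 2214, 2069, 1848 (of 10529), 1309, 6124, 3334, 830 and 803 were called higher. Mature against immature B gave 14, and 8 with the mean of all probe sets, 4 without suffixed probe sets and 8 in 1 fit of all arrays. Over all genes, in the same order, 408, 397, 332 (of 10529) and 128 were called lower. The causes of these changes were not tested. Some of these fits also held fewer genes or arrays. With each array left out in turn the counts ran from 7 to 18 for leukemic against pre-B, 0 to 0 against pro-B, 45 to 46 against immature B and 41 to 46 against mature B. They ran from 3 to 20 for pre-B against pro-B, 48 to 48 for immature against pre-B, 3 to 18 for mature against immature B, and 0 to 0 for pIpC. Over all genes, in either direction, the 4 leukemic comparisons ran from 1617 to 2359, 860 to 2777, 2609 to 3361 and 1375 to 2796. The 3 normal steps ran from 3190 to 4833, 2082 to 2842 and 241 to 801, and pIpC from 0 to 2. With the replicate block 15, 48 and 15 genes were called for the 3 normal steps. Over all genes 1357 were called higher in the first step, and 1257 and 379 lower in the next steps. The replicate numbers partly follow the accession run, so this block is in part a block on the run. The run could not be a covariate for mature B, which lies in 1 run. Precision is limited by 3 mature B arrays and by probe sets that disagree in sign. Of 24 genes with several, 3 did so for leukemic against pre-B, 12 against pro-B, 2 against immature B and 2 against mature B. For pre-B against pro-B it was 0, for immature against pre-B 1, for mature against immature B 6 and for pIpC 10.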
